A study of Mus musculus with 24 samples.

Results

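mmu-miR-468-3p, mmu-miR-190b-5p, mmu-miR-1927 and mmu-miR-672-5p (written without the mmu prefix from here on) were the 4 miRNAs with the largest rise in form-deprived whole eyes outside the miR-466, miR-467 and miR-669 families, of 696 mouse miRNAs on the array and 341 that passed the detection filter in whole eye. The members were thus chosen by the whole-eye difference between arms, which is given here as a description with no test. All 4 passed that filter, each through the myopia arrays. In the study, C57BL/6J mice wore a frosted diffuser over the right eye for 10 days from postnatal day 24, which blurs the image and makes the eye myopic (form deprivation), and the untreated left eye was the control, both taken at an age of 34 days. Total RNA of whole eye (6 arrays per arm, 6 mice), retina (3 arrays per arm, 9 mice) and sclera (3 arrays per arm, 9 mice) was hybridised to 24 one-colour Agilent mouse miRNA arrays, from 15 mice in the series.

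Arms follow the sample titles. Whole-eye titles match the source name and the phenotype field, although the free-text description contradicts all of them; by the description, every whole-eye difference below would have the other sign. In the dissected tissues the titles stand against every other field, so the retina and sclera arms are called titled myopia and titled control, and the direction of any difference between them is unsettled. The labels do not say which animals an array held or whether RNA was pooled, so a p-value here measures spread among samples only, part of which may be technical. In whole tissue RNA, fewer cells of a type and less RNA per cell cannot be told apart.

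Between 274 and 401 miRNAs were detected per array. Tissue markers followed the labels: the 5 retinal markers (miR-124-3p, miR-9-5p, miR-183-5p, miR-96-5p and miR-182-5p) were all higher in retina than in sclera (limma, adjusted p under 0.05; median log2 difference 4.50), and the 5 fibroblast markers were all lower (median -7.76). The retinal markers were detected on every sclera array, where their summed log2 level ran from 1.38 to 3.98, against 7.55 to 7.81 in retina. The arrays lay on 3 slides, each scanned once, and every slide held both arms of every tissue.

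A miRNA is a short RNA that guides an Argonaute protein to target messenger RNAs. Its seed, bases 2 to 8 from the 5′ end, pairs with the target and largely decides which messages are repressed. Mature miRNAs are cut from hairpin precursors, and many hairpins lie within introns of longer genes. On this array each miRNA is read by short probes complementary to the mature strand, so related or similar sequences matter for what a probe reads.

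The mature sequences of miR-190b-5p and miR-672-5p, the members with an entry of that name in RefSeq (GRCm38.p6), are shown with the seed in capitals, beside miR-190a-5p, the relative that shares the miR-190b-5p seed.
miR-190b-5p: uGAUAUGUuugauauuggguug
miR-190a-5p: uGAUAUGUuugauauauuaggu
miR-672-5p: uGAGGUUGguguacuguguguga
miR-190b-5p and miR-190a-5p are identical at 15 of 22 positions, and differ only from position 16 onward (U16A, G17U, G18U, G19A, U20G, U21G and G22U, counted from the 5′ end, with the miR-190b-5p base first). miR-190b-5p and miR-672-5p have different seeds.

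The RefSeq hairpins Mir468 and Mir1927 are shown because the probes of miR-468-3p and miR-1927 match them, with the stretch complementary to the longest probe in capitals. In both it lies in the 3′ part of the hairpin, at bases 59 to 75 of 78 for Mir468 and at bases 72 to 88 of 109 for Mir1927.
Mir468: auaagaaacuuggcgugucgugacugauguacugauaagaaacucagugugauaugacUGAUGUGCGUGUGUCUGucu
Mir1927: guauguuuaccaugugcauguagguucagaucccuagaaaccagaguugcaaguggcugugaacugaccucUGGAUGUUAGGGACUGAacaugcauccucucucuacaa
In RefSeq, Mir1927 lies within the span of Rabgap1l and Mir672 within that of Nexmif. Mir468 and Mir190b overlap no other RefSeq gene, and their nearest protein-coding genes are Gcfc2 and 1700094D03Rik.

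The longest probe of each member is shown because its other probes are shortened forms of it. The first CACAC and any AC repeats directly after it are in capitals.
miR-468-3p: cagaCACACgcacatca
miR-190b-5p: aacccaatatcaaacatatca
miR-1927: tcagtccctaacatcca
miR-672-5p: tCACACACagtacacca
The files map these probes in mm9 to chr6:81846651-81846667, chr3:89873952-89873972, chr1:162226067-162226082 (a span of 16 bases for a probe of 17) and chrX:101311544-101311560. The RefSeq precursors are on the minus strand for Mir468, Mir1927 and Mir672 and on the plus strand for Mir190b.

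The probes of miR-468-3p and miR-672-5p hold CACAC, and those of miR-190b-5p and miR-1927 do not. CACAC or its complement GTGTG stood in the longest probe of 61 of 696 miRNAs on the array (8.76%). The longest run shared between 2 members was 6 bases, between miR-468-3p and miR-672-5p. With probes of other miRNAs, the longest shared run was 7 bases for miR-468-3p, 8 for miR-1927 (with miR-30b-3p), 9 for miR-672-5p (with miR-493-3p and miR-574-5p) and 15 for miR-190b-5p (with miR-190-5p, the array's name for miR-190a-5p).

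In whole eye, miR-468-3p had the largest difference at the floor used here, and miR-1927 exceeded it with a floor 4 times lower (4.98 against 4.20), in the series value table (2.73 against 2.23) and with normexp (0.894 against 0.882). The miR-468-3p signal, the sum over its probes of the mean spot signal in scanner units, was -2.90, 4.57, 35.8, 18.1, 40.3 and 29.4 on control arrays 1 to 6, and 117, 399, 148, 259, 425 and 244 on myopia arrays 1 to 6. The lowest myopia array exceeded the highest control array, and miR-468-3p was detected on 2 of 6 control arrays and 6 of 6 myopia arrays. On the scaled log2 level, which divides each array by its 75th percentile and sets a floor under dim values, the myopia mean was -1.79 ± 0.62 (SD, n = 6) and the control mean -5.52 ± 1.01, a difference of 3.74 (13.3-fold, SE 0.44). Because 2 control arrays sat at the floor, the difference depends on it.

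miR-190b-5p was at 9.17, 9.86, 27.4, 14.1, 12.3 and 20.4 on the control arrays and at 140, 247, 54.9, 91.7, 488 and 118 on the myopia arrays. The arms did not overlap, and it was detected on 2 of 6 control arrays, replicates 3 and 6. Its log2 difference was 3.47 (11.1-fold, SE 0.45).

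miR-1927 was near background in control eyes, at -6.11, -4.55, 14.5, -5.31, 0.789 and 1.72, and at 79.9, 182, 42.0, 53.2, 305 and 74.3 in myopia eyes. It was detected on 1 of 6 control arrays, with the other 5 at the floor. Its log2 difference of 3.31 (9.92-fold, SE 0.40) therefore rests on the floor.

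miR-672-5p was at 10.6, 11.4, 16.7, 16.5, 17.5 and 19.3 on the control arrays and at 49.4, 144, 61.3, 88.7, 147 and 93.6 on the myopia arrays. It was detected on 3 of 6 control arrays and the arms did not overlap. Its log2 difference was 2.71 (6.53-fold, SE 0.23), rank 7 of 341, while the other members held ranks 1 to 3. Of the 341 miRNAs tested, 35 were higher in myopia (10.3%; limma, adjusted p under 0.05) and 0 lower (0%), and 33 (9.68%) had every myopia array above every control array. After quantile normalization 32 were higher and 64 lower. The median over all tested was 0.08. The median of the 4 members was 3.39, against 0.78 with normexp background correction and 2.06 in the series value table. Just outside the choice lay miR-30c-1-3p at 2.56 (rank 8) and miR-294-3p at 2.29 (rank 11).

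**Figure D1:**
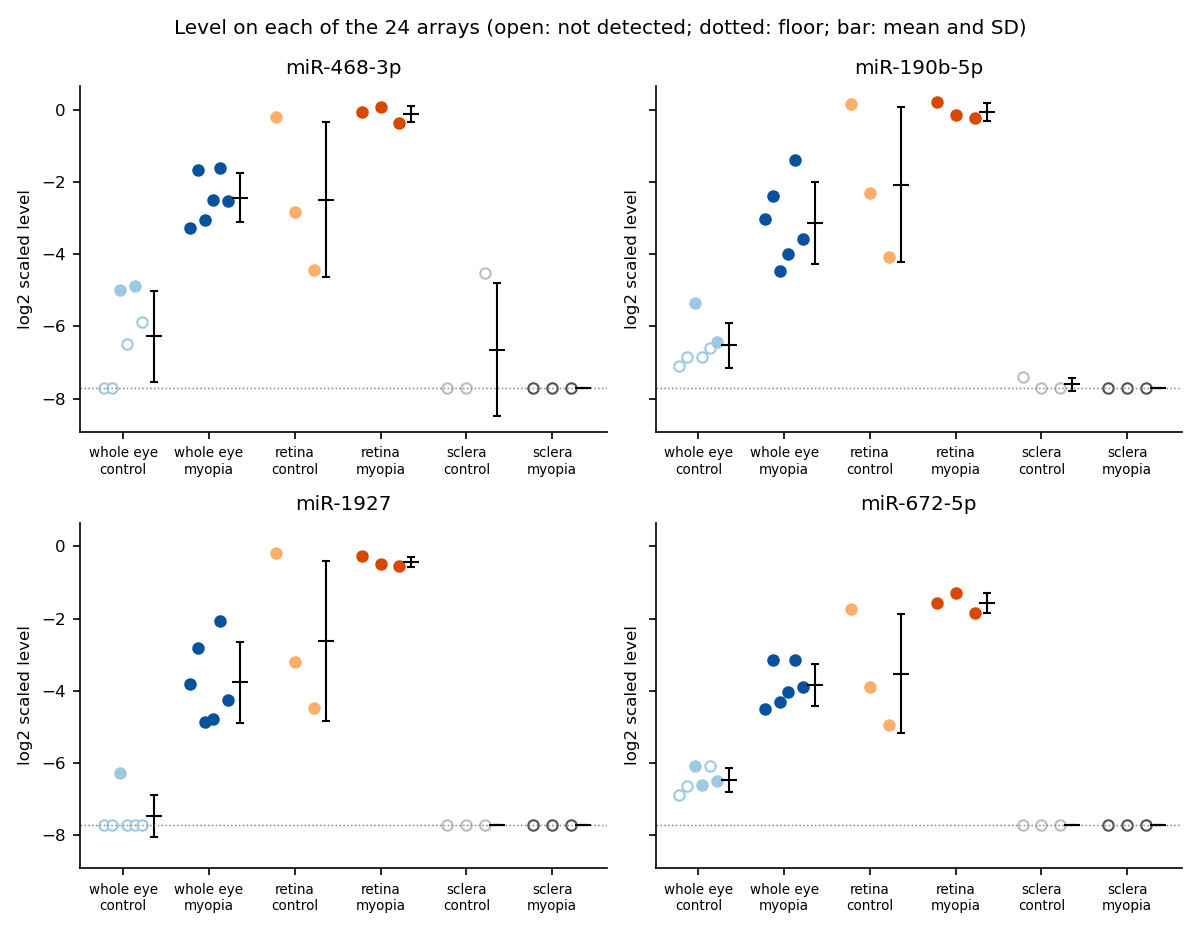
Scaled log2 level (24-array scaling) of the 4 miRNAs on every array, by tissue and titled arm. Filled points were detected and open points were not; the dotted line is the floor and the bars are mean and SD. Retina titled myopia has the highest mean for each miRNA, all sclera points are open, and the 3 retina titled control arrays are far apart.

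Within the whole-eye myopia arm, the same arrays were brightest for every member. Replicates 2 and 5, both on slide 2, gave the 2 highest signals for miR-468-3p, miR-190b-5p, miR-1927 and miR-672-5p alike. The difference between arms was present on each slide, with 2 arrays per arm: for miR-190b-5p it was 3.61 on slide 1, 4.82 on slide 2 and 1.99 on slide 3. For miR-468-3p it was 4.07, 4.37 and 2.77, for miR-1927 3.02, 4.67 and 2.25, and for miR-672-5p 2.62, 3.21 and 2.30. Slide 3 gave the smallest difference for all 4 members. The control mean was highest on slide 3 for each. On slides 1 to 3 it was -6.22, -5.48 and -4.87 for miR-468-3p and -6.38, -6.18 and -5.33 for miR-190b-5p. For miR-1927 it was -6.58, -6.58 and -6.11, and for miR-672-5p -6.16, -5.82 and -5.72. The myopia mean was lowest on slide 3 for miR-190b-5p and miR-1927. For miR-468-3p and miR-672-5p it was lowest on slide 1 (-2.15 and -3.55, against -2.10 and -3.42 on slide 3). On that slide, myopia replicates 3 and 6 also had the widest spread between spots of a probe, with a median CV of 16.4% and 10.3%, against 4.88% to 6.65% on the other whole-eye arrays. The part of this spread in the smaller differences was not tested.

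The probes of each member agreed in the direction of the whole-eye difference, but not always in its size. miR-468-3p and miR-190b-5p have 4 probes with 5 spots each, and miR-1927 and miR-672-5p have 2 probes with 10 spots each. The probes of a miRNA are nested, differing only in length, so they share their target and are not independent. Counted singly, 12 of 12 probes had every whole-eye myopia array above every control array. Among the 341 miRNAs tested, 33 did (9.68%), and the share over all probes was not counted. Because the members were chosen for this difference on these arrays, the probe and spot counts describe it and add no support. Among myopia whole eyes, spots well above background numbered 119 of 120 for miR-468-3p, 108 of 120 for miR-190b-5p, 115 of 120 for miR-1927 and 118 of 120 for miR-672-5p. Among control whole eyes the numbers were 5, 4, 2 and 7 of 120. From the shortest to the longest miR-190b-5p probe, the log2 ratio of whole-eye arm means was 5.58, 5.04, 3.27 and 2.61. It lay between 3.47 and 3.97 for miR-468-3p and was 3.01 and 2.45 for miR-672-5p. For miR-1927, the 17-base probe gave 6.28 and the 16-base probe had a control mean of -0.64. Control means per probe were at most 10.07, so the ratios rest on dim values.

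Probes of a member differed little in signal on bright arrays. In retina titled myopia, the mean signal of the 4 miR-468-3p probes ran from 392 to 496, and that of the 4 miR-190b-5p probes from 445 to 459. The highest over the lowest probe mean there was 1.27 for miR-468-3p, 1.03 for miR-190b-5p, 1.05 for miR-1927 and 1.13 for miR-672-5p. In whole-eye myopia these ratios were 1.51, 1.14, 1.04 and 1.30.

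**Figure D2:**
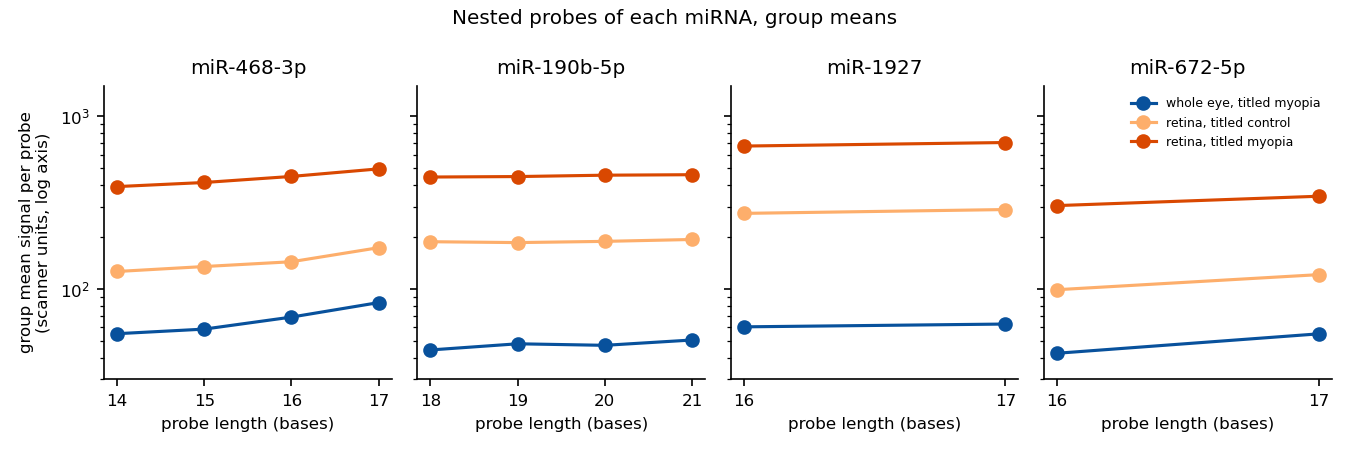
Group mean signal (scanner units, log axis) of each probe against its length in bases, for whole-eye titled myopia, retina titled control and retina titled myopia. Lines are nearly flat for miR-190b-5p and miR-1927 and rise with length for miR-468-3p and miR-672-5p.

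Ratios between members were compared in 2 pairs, a grouping made after their values were seen. On the 13 arrays where all 4 were detected (6 whole-eye myopia, 1 whole-eye control and 6 retina), the ratio of miR-190b-5p to miR-1927 lay between 1.25 and 1.90, with an SD of 0.23 on the log2 scale. The ratio of miR-468-3p to miR-672-5p lay between 1.43 and 2.92 (SD 0.29). Across the pairs, miR-468-3p over miR-190b-5p ran from 0.695 to 2.83 (SD 0.71) and miR-1927 over miR-672-5p from 0.600 to 2.92 (SD 0.75). The steadier ratios within pairs came from the whole-eye myopia arrays, where SDs were 0.18 and 0.13 within pairs and 0.73 to 0.78 across them. They did not hold in the 6 retina arrays, where miR-468-3p over miR-672-5p had an SD of 0.39, above that of miR-468-3p over miR-190b-5p (0.26) and over miR-1927 (0.21). Because probes differ in brightness, these ratios compare arrays and not the abundance of the miRNAs. The pair of miR-468-3p and miR-672-5p is also the pair whose probes hold CACAC, as printed above.

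**Figure D3:**
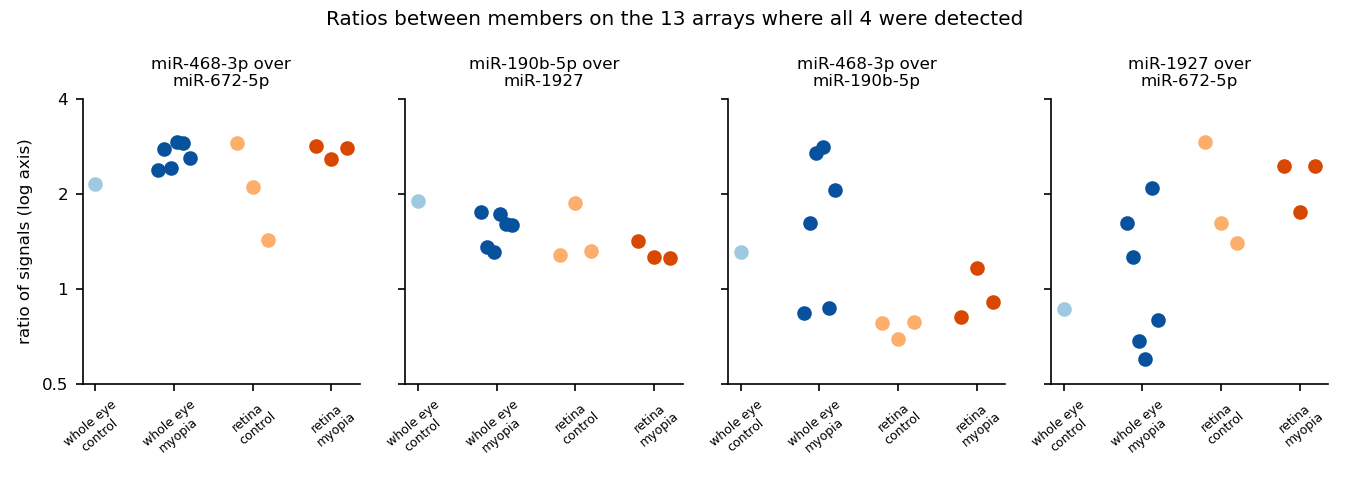
Ratio of signals (log axis) between members on the 13 arrays where all 4 were detected, by tissue and titled arm. The first 2 panels show ratios within a pair and the last 2 ratios across pairs; the latter spread widely within whole-eye myopia, while in retina miR-468-3p over miR-190b-5p spreads less than miR-468-3p over miR-672-5p.

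In sclera none of the 4 was detected on any of the 6 arrays. miR-468-3p signals were 3.45, 0.968 and 18.4 in titled control and -0.370, 1.23 and 1.42 in titled myopia. Signals ran from -5.51 to 6.45 for miR-190b-5p, from -6.33 to -0.0460 for miR-1927 and from -0.561 to 1.44 for miR-672-5p. Of 60 spots per arm, 1 was well above background for miR-468-3p in titled control, and 0 in every other case. No member passed the detection filter, so no arm difference was tested. Among the 311 miRNAs that did, 0 were called higher and 0 lower (0% each; limma), with 7 at an unadjusted p under 0.05.

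In retina all 4 were detected on 6 of 6 arrays. miR-468-3p was at 1412, 239 and 82.4 on titled control arrays 1 to 3 and at 1681, 2346 and 1224 on titled myopia arrays 1 to 3. Titled control 1 lay within the range of the titled myopia arrays, while titled control 2 and 3 were well below, so the arms overlapped. miR-190b-5p was at 1816, 344 and 105 in titled control and at 2063, 2015 and 1346 in titled myopia. miR-1927 was at 1423, 184 and 80.2, and at 1456, 1602 and 1077. miR-672-5p was at 488, 114 and 57.6, and at 595, 912 and 438. The same titled control array was high for every member and the same one was low.

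The titled myopia mean exceeded the titled control mean by a log2 difference of 2.31 (SE 1.05, 95% interval -0.33 to 4.94) for miR-468-3p, and of 1.96 (SE 1.05, -0.68 to 4.60) for miR-190b-5p. It was 2.13 (SE 1.07, -0.57 to 4.82) for miR-1927 and 1.90 (SE 0.80, -0.13 to 3.92) for miR-672-5p. None of the 4 passed the test (limma, n = 3 per arm; adjusted p = 0.537, 0.549, 0.537 and 0.537), nor did any of 396 tested miRNAs (0% higher, 0% lower), of which 20 had an unadjusted p under 0.05. Every array of titled myopia above every array of titled control was found for 33 of 396 miRNAs (8.33%), the reverse for 8 (2.02%), and neither for any of the 4. With the labels' other reading of the arms, these signs would turn.

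The retina result rested on single titled control arrays. Without titled control 3, the differences were 1.26, 0.89, 1.13 and 1.12 for miR-468-3p, miR-190b-5p, miR-1927 and miR-672-5p, and none passed (limma, adjusted p = 0.597 for each). Without titled control 1, 4 of 4 members passed (log2 3.34, 2.98, 3.24 and 2.69; limma, adjusted p = 0.0265, 0.0450, 0.0243 and 0.0249), as did 52 higher and 3 lower of 396 miRNAs (13.1% higher). Array weights, which let a deviating array count less, also gave 4 of 4 (64 of 396 higher, 16.2%), and a fit over all 24 arrays gave 1 of 4, miR-672-5p (51 of 426 higher, 12%). Within slides, with 1 array per arm, the difference for miR-468-3p was 0.17 on slide 1, 2.65 on slide 2 and 4.10 on slide 3. For miR-190b-5p it was 0.10, 1.90 and 3.88, for miR-1927 -0.05, 2.48 and 3.96, and for miR-672-5p 0.20, 2.36 and 3.14. The titled control arrays of retina spanned 18.1-fold, 18.2-fold, 18.7-fold and 8.93-fold for miR-468-3p, miR-190b-5p, miR-1927 and miR-672-5p on the scaled level. The median span over the 396 tested miRNAs was 1.35-fold, and 7.58%, 7.32%, 6.31% and 14.1% of them spanned at least as much as the respective member. The titled myopia arrays spanned 1.16-fold to 1.40-fold for the 4 members.

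A lens and cornea marker moved the other way on the retina titled control arrays. miR-184-3p, abundant in lens and corneal epithelium, was at 141, 2230 and 8073 on retina titled control arrays 1 to 3 and at 990, 1090 and 832 on titled myopia arrays 1 to 3. It was thus lowest on the titled control array where the 4 members were highest and highest on the one where they were lowest. Among titled myopia arrays its signal, not scaled by array, was highest on array 2 and lowest on array 3, as for miR-468-3p, miR-1927 and miR-672-5p. On the scaled level (24-array scaling) this order did not hold. There miR-184-3p was at -0.84, -1.04 and -0.93 on titled myopia arrays 1 to 3, lowest on array 2. On that level miR-468-3p and miR-672-5p were highest on array 2, and miR-190b-5p and miR-1927 on array 1. The second marker of that list, miR-205-5p, was detected on 1 of the 6 retina arrays, titled control 3, with a signal of 27.3. The summed log2 level of the list ran from -3.44 to 2.18 in titled control and from -1.02 to -0.82 in titled myopia. That of the 5 retinal markers ran from 7.55 to 7.81 in titled control and from 7.57 to 7.70 in titled myopia. The part of the lens and cornea RNA in the spread of the 4 members was not tested.

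**Figure D4:**
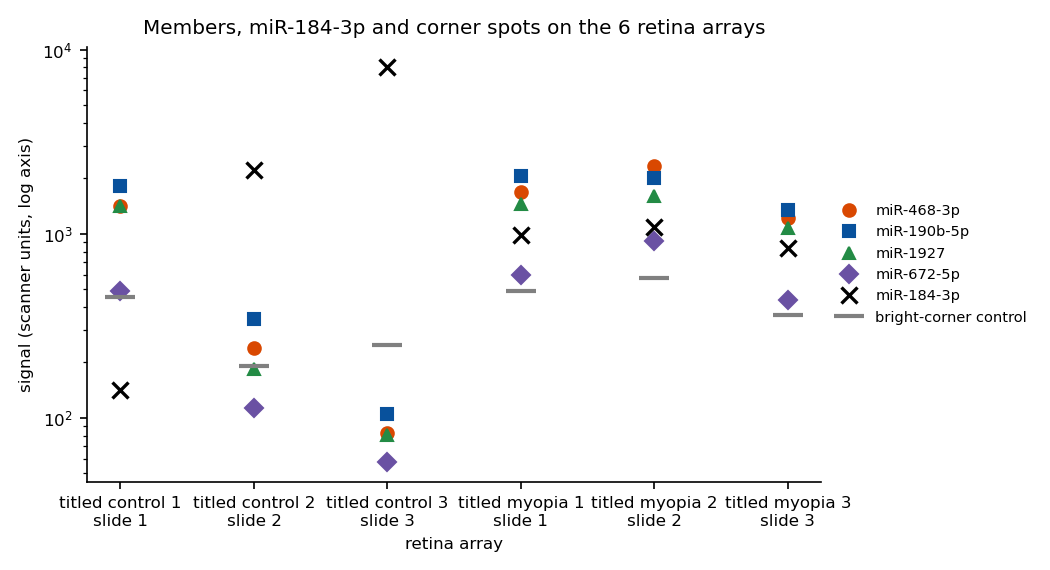
Signal (scanner units, log axis) of the 4 miRNAs, of the lens and cornea marker miR-184-3p and of the bright-corner control spots on each of the 6 retina arrays. The 4 miRNAs are highest among titled control arrays where miR-184-3p is at 141 and lowest where it is at 8073; the titled myopia arrays lie close together.

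Each member was higher in retina than in sclera. The members passed the detection filter through retina and whole-eye myopia, where they were high, so the count adds nothing to the values. With sclera undetected, folds are given as bounds for the retina mean under the 24-array scaling, and are not limits under other processing. On that scaling miR-468-3p was at least 55.8-fold higher in retina (log2 level -1.31 ± 1.88, SD, n = 6; limma, adjusted p = 5.55e-08). miR-190b-5p was at least 75.3-fold higher (-1.06 ± 1.75; limma, adjusted p = 3.63e-10). miR-1927 was at least 58.7-fold higher (-1.53 ± 1.84; limma, adjusted p = 1.13e-09) and miR-672-5p at least 28.9-fold (-2.55 ± 1.503; adjusted p = 2.46e-11). Without retina titled control 1, and with both arms weighted equally as in the fit, these bounds were 37.5-fold, 51.1-fold, 38.4-fold and 21.2-fold, and all 4 passed. In the same member order, the log2 differences of the main fit were 5.87, 6.59, 6.17 and 5.16. They were smaller after quantile normalization (5.30, 5.94, 5.56 and 4.40) and in the series value table (4.22, 4.62, 5.41 and 4.09). For miR-468-3p, the lowest retina array, titled control 3 (-4.44), lay close to sclera titled control 3 (-4.53, undetected). Sclera lay at the floor on 6 of 6 arrays for miR-1927 and miR-672-5p and on 5 of 6 for the other members. The p-values therefore depend on the floor. With the 12 retina and sclera arrays only, adjusted p (limma) was 3.3e-05 for miR-468-3p, 1.5e-06 for miR-190b-5p, 2.6e-06 for miR-1927 and 1.1e-06 for miR-672-5p. Of 426 miRNAs tested over 24 arrays, 250 were higher in retina (58.7%) and 130 lower (30.5%), with a median difference of 0.81. The split was 181 higher and 173 lower when all miRNAs set the scale, 192 and 169 after quantile normalization, 290 and 64 in the series value table, and 68 and 244 with normexp background correction. With normexp, which adds an offset of 50 to every spot, the median over all miRNAs was -0.87 and only 1 of 4 members passed, miR-1927 (log2 1.22, adjusted p = 0.0137, limma). miR-468-3p was then at 0.65, miR-190b-5p at 0.80 and miR-672-5p at 0.40.

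Over the 6 groups, mean levels were highest in retina titled myopia for every member. On the 24-array scale, miR-468-3p was at -0.13 ± 0.23 there (SD, n = 3), -2.44 ± 0.68 in whole-eye myopia (n = 6), -2.48 ± 2.14 in retina titled control (n = 3) and -6.27 ± 1.26 in whole-eye control (n = 6). The other members had retina titled control above whole-eye myopia: -2.07 ± 2.14 and -3.14 ± 1.12 for miR-190b-5p, -2.62 ± 2.21 and -3.76 ± 1.11 for miR-1927, and -3.52 ± 1.65 and -3.84 ± 0.58 for miR-672-5p. For all 4, the array ranges of these neighbouring groups overlapped, as did those of both retina arms. Whole-eye control followed, at -6.52 ± 0.62, -7.47 ± 0.58 and -6.46 ± 0.33 for miR-190b-5p, miR-1927 and miR-672-5p. Both sclera arms had only bounds and no order.

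Control spots are printed beside these values because they read no miRNA. The bright-corner spots, 10 per array, averaged 226 to 487 on whole-eye myopia arrays and 137 to 230 on whole-eye control arrays. Their log2 mean was higher in myopia by 0.96 (1.94-fold; exact permutation test, two-sided, p = 0.00649, adjusted over 6 tests 0.0195). In retina they ranged from 362 to 576 in titled myopia and from 191 to 451 in titled control (log2 difference 0.75, exact p = 0.2; the smallest p that 3 against 3 allows is 0.1). In sclera they ranged from 107 to 146 and from 104 to 163 (log2 difference -0.20, exact p = 0.5).

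The corner spots followed the members on several arrays. In whole-eye myopia, corner spots were brightest on replicates 2 and 5, the arrays with the highest signal of each of the 4 members. In retina, the 4 brightest arrays by corner spots were titled myopia 2 and 1, titled control 1 and titled myopia 3, the same order as for miR-468-3p, miR-1927 and miR-672-5p. These are orders of signals not scaled by array. On the 24-array scaled level the order held for miR-468-3p and miR-672-5p. For miR-1927 it did not, with -0.18 on titled control 1 and -0.28, -0.48 and -0.56 on titled myopia 1 to 3. On the whole-eye control arrays the corner spots were brightest on replicate 6 (230), which was the highest array of that arm for miR-672-5p, the second highest for miR-190b-5p and miR-1927 and the third highest for miR-468-3p. These ranks rest on dim, unscaled signals, and miR-468-3p and miR-1927 were not detected on replicate 6. On the 24-array scaled level miR-672-5p was lower there (-6.49) than on replicates 3 and 5 (-6.08 each). The array with the second brightest corner spots, replicate 2, was among the 3 lowest for every member. Between whole-eye arms, the log2 difference was 0.96 for corner spots, on signals not scaled by array. It was 2.71 to 3.74 for the members, on scaled and floored levels, and their control values were mostly undetected. These are unlike measures, so their sizes cannot be set against each other. With normexp, which adds an offset of 50 to every spot, the members were at 0.66 to 0.89. The corner signal was not put through that correction, so those values cannot be set against its difference. The difference between corner spots and members was not tested. Negative control spots went the other way in whole eye, with a mean of 1.59 ± 0.51 in myopia and 2.76 ± 0.55 in control (SD, n = 6; exact permutation test, p = 0.00216, the smallest possible, adjusted 0.0130). On mean minus background signal, that difference was -0.998 with an exact permutation p of 0.621. The part of non-specific signal in the members' differences was not tested.

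**Figure D5:**
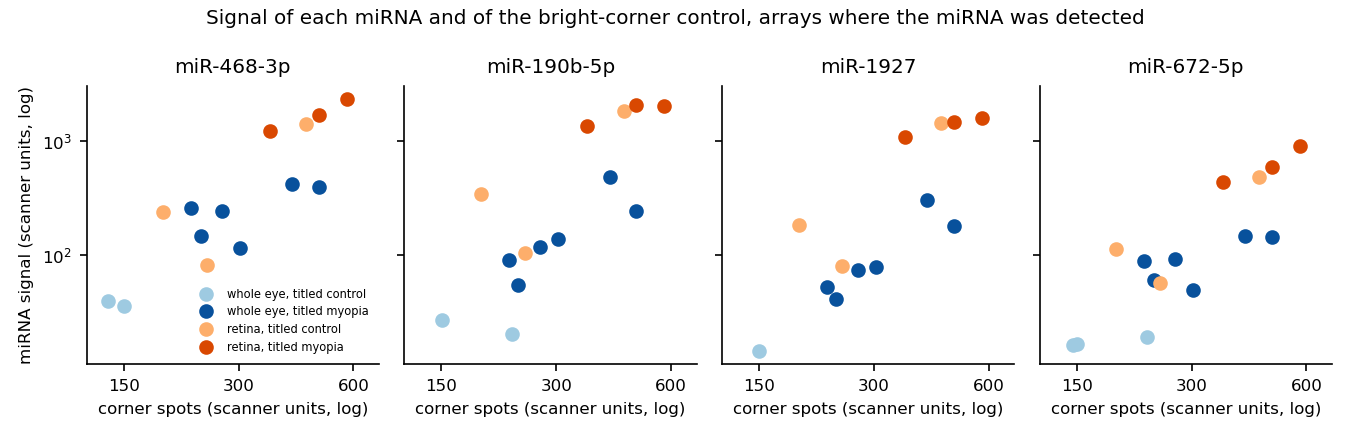
Signal of each miRNA against the mean signal of the bright-corner control spots (both in scanner units, log axes) on the arrays where the miRNA was detected, coloured by tissue and titled arm. The 4 retina arrays with the brightest corners lie above all whole-eye arrays, and the 2 whole-eye myopia arrays with the brightest corners have the highest miRNA signals of their arm.

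The relative miR-190-5p, which shares the miR-190b-5p seed and 15 bases of its probe, was detected on 0 of 24 arrays. Its signal ran from 0.771 to 2.88 in whole-eye control, from 0.318 to 1.47 in whole-eye myopia and from 2.44 to 4.33 in retina. No other array miRNA shared a number with a member, and none with a RefSeq sequence shared the seed of miR-190b-5p or miR-672-5p. RefSeq sequences were matched by name for 528 of 696 array miRNAs and 2 of the 4 members.

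The miRNAs most like each member in level over the 24 arrays were partly the other members. For miR-190b-5p the first 3 were miR-1927 (Pearson r = 0.99), miR-30c-1-3p (0.99) and miR-672-5p (0.99). For miR-1927 they were miR-190b-5p (0.99), miR-15a-3p (0.98) and miR-760-3p (0.98). For miR-672-5p they were miR-190b-5p (0.99), miR-1927 (0.97) and miR-669a_v15.0 (0.97). For miR-468-3p they were miR-669n (0.99), miR-466h-5p (0.98) and miR-466c-5p_v15.0 (0.97), members of the families left out of the choice. The median r of a member with all tested miRNAs was 0.53 to 0.59. Over the 12 retina and sclera arrays the listed correlations were 0.968 to 0.999. The arrays share scaling and a floor, and each r spans the tissue difference as well as the arms.

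miR-30c-1-3p and miR-294-3p, just outside the choice, had a similar pattern over the tissues. miR-30c-1-3p ran from 5.96 to 22.5 in whole-eye control, 23.8 to 210 in whole-eye myopia, 45.9 to 438 in retina titled control and 199 to 628 in retina titled myopia, and was detected on 0 of 6 sclera arrays. miR-294-3p ran from 7.06 to 12.03, 31.0 to 78.8, 27.3 to 296 and 283 to 621 in the same groups, and was also undetected in sclera.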

How the data were processed

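The 4 members, the marker lists and the tests were chosen with earlier results of these data known. The authors deposited scanner files with intensity values per spot, made with Agilent Feature Extraction, which subtracted background and called detection per miRNA (version 11.0.1.1 per the file headers, 11 per the submitters' processing notes). The deposited series value table holds log2 values per probe (column medians 3.18 to 4.07). At bright probes it lay 0.013 to 0.035 above the log2 scanner signal (r at least 0.991), so its scale is settled there; for dim probes the authors' rule is unknown here. It was used as an alternative. The number of columns left unmapped was 0.

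Spot means without outlier-flagged spots were summed over the probes of a miRNA, scaled to the 75th percentile of that array (taken over miRNAs that every array in the fit detected), floored at the median lowest detected signal and log2 transformed. A miRNA was tested when detected on 2 of 3 arrays of a group or more. Differences used limma 3.58.1 in R 4.3.3 (lmFit and eBayes, two-sided tests), adjusted by Benjamini-Hochberg over all tested miRNAs, at a threshold of 0.05; the code was tested on simulated data. Each tissue was fitted alone, and retina was compared with sclera over all 24 arrays. A fold "at least" sets the brighter mean against, per dim array, whichever was higher: its own signal or the lowest one detected there. Such a fold holds for the 24-array scaling only. Control spots were compared by exact permutation, on signals not scaled by array. Python 3.11.15 with numpy 2.4.6, pandas 2.3.3, scipy 1.17.1 and matplotlib 3.10.9 was used. Precision is limited by the number of arrays.

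The miRNAs named are the 4 members, the next 2 by whole-eye difference outside the miR-466, miR-467, miR-669 and miR-297 names, miRNAs of the same number or seed, and for each member the 3 with the highest correlation over 24 arrays. Names and mm9 coordinates are those of the files; sequences are from the files and RefSeq. Alternatives covered the scaling set, quantile normalization, normexp, the series table, the scanner's total gene signal, the floor, the detection filter, slide and replicate blocks, all 24 arrays, the 12 retina and sclera arrays, array weights and leaving out each array.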

Additional observations from a re-analysis of the deposited data

Results flagged for a closer look

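In whole-eye control eyes, replicate 3 stood apart from the other 5 arrays for 2 members: the log2 level of miR-190b-5p was -4.72 and that of miR-1927 was -5.64. For miR-1927 the other 5 control arrays all lay at the floor, so the gap rests on its being the only detected array. The corner spots of whole-eye control replicate 6 were the brightest of that arm, with a log2 signal of 7.83. Of 12 groups of 6 arrays examined, 3 had such a value, where chance gives about 1 in 20.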

How the results depend on the processing

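The median log2 difference of the 4 members in whole eye, 3.39, stayed positive under every alternative run. It moved to 0.78 with normexp, whose offset of 50 on every spot shrinks log2 differences between dim signals. The median was 2.06 in the series value table, and lay between 3.08 and 3.63 when single arrays were left out. Over all miRNAs normexp called 22 higher and quantile normalization 96 in all, against 35. In retina the count of members past the threshold was 0, and became 1 with all 24 arrays and 4 with array weights; leaving out arrays gave 0 to 4. In sclera it stayed 0 wherever a member could be tested. For retina against sclera it was 4, 1 with normexp, and 4 to 4 when arrays were left out. Another scaling set or quantile normalization shifted the median of all miRNAs from 0.08 to -0.13 and -0.12 in whole eye, from -0.07 to -0.46 and -0.23 in retina and from 0.81 to 0.08 and 0.09 for retina against sclera. On mean minus background signal, the negative control difference was -0.998 in whole eye (exact permutation p = 0.621) and 0.80 in retina (against -0.21). Leaving out arrays gave corner differences of 0.83 to 1.07 in whole eye, 0.48 to 1.099 in retina and -0.39 to -0.08 in sclera, and negative control differences of -1.27 to -0.96, -0.37 to -0.04 and -0.95 to -0.43. Beyond the offset that normexp adds, the cause of these shifts was not tested. Same-numbered arrays deviated together in some cases only (r from -0.22 to 0.49 in whole eye, -0.22 to 0.64 in retina and -0.37 to -0.10 in sclera). No r between differently numbered arrays was set beside these. The labels do not say which arrays came from the same mouse, so replicate numbers were not taken as pairs. With a replicate block the whole-eye median was again 3.39, the members past the threshold were 0 in retina and 4 for retina against sclera, and calls over all miRNAs in whole eye numbered 44 higher and 1 lower.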

Other observations

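CACAC or GTGTG stood in the longest probe of 17 of the 35 miRNAs called higher in whole-eye myopia (48.6%) and of 33 of the 341 tested there (9.68%). Among the 22 of the 35 with names other than miR-466, miR-467, miR-669 and miR-297, it stood in 5 (22.7%), miR-468-3p and miR-672-5p included. These counts describe probe letters and were not tested.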
